A study of Mus musculus with 6 samples.

Results

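The 38 genes described here encode the machinery that builds autophagosomes and the receptors that load them. They were taken by gene name from a table of 54532 mouse genes, and all 38 were found once. The table holds 6 RNA sequencing libraries labelled MIN6, a mouse insulinoma line kept as a model of pancreatic beta cells. The labels assign 3 libraries to PP2Ac knockdown (titles sh2) and 3 to control (titles shc); PP2Ac is the catalytic subunit of protein phosphatase 2A. They name no drug, lipid, time point or method of knockdown, and nothing says whether replicates were separate cultures or the knockdown a single clone, so p-values measure the spread between these samples, which may be technical. The question put to the data is which autophagy transcripts respond when PP2Ac is lowered.

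Autophagy is the degradation of cytoplasm, organelles and protein aggregates in lysosomes. The ULK kinase complex starts it, a lipid kinase complex marks the site with phosphatidylinositol 3-phosphate, and ATG9 vesicles, ATG2 lipid transfer proteins and WIPI proteins expand a cup-shaped membrane. ATG7, ATG3, ATG10 and the ATG12-ATG5-ATG16L1 complex then attach small ATG8 proteins (LC3 and GABARAP) to that membrane, where receptors such as p62 dock with their cargo. In beta cells autophagy is known for clearing damaged mitochondria and surplus insulin granules.

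Expression was given as FPKM, a read count corrected for gene length and sequencing depth, and 14614737 to 16030939 reads per library were recovered from them. Ppp2ca, which encodes the alpha isoform of PP2Ac (the labels do not say which isoform was targeted), had 10.1, 11.4 and 10.9 FPKM in knockdown, against 42.5, 34.6 and 35.6 FPKM in control (log2 change -1.70, SE 0.0917, limma adjusted p = 5.35e-06; two-sided exact permutation p = 0.1, the smallest that 3 against 3 allow). Beta cell markers went against the MIN6 label: 18 of 20 had a mean FPKM under 1, and 11, Ins1, Ins2 and Nkx6-1 among them, were at 0 in all 6 libraries. The summed FPKM of those 20 ran from 8.21 to 9.90 in knockdown and from 3.13 to 4.82 in control, most of it from the transcription factor genes Pdx1 and Mafa. Both were higher in knockdown (log2 change 0.90 and 1.078, limma adjusted p = 0.000802 and 0.000344). Of 16 stromal, endothelial, immune and epithelial markers, 12 were under 1 and 6 at 0, Cdh5, Adgre1 and Epcam among them; their sum ran from 19.5 to 24.0 in knockdown and from 23.7 to 29.7 in control. Within it the macrophage marker Cd68 averaged 2.27 ± 0.310 FPKM in knockdown and 16.5 ± 3.82 FPKM in control (SD, n = 3 each; log2 change -2.40, limma adjusted p = 9.09e-06). Pdgfrb, Lyz2 and Pdgfra were higher in knockdown, by 0.79, 0.72 and 0.57 on the log2 scale (limma adjusted p = 0.000260, 0.00599 and 0.00262). Dcn, too low to be tested, had 47 to 80 reads in knockdown and 2 to 4 in control. Mitochondrially encoded transcripts took 1.26% to 1.38% of reads in knockdown and 2.74% to 3.499% in control. What part the markers had in the results was not tested.

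Of the 38 genes, 37 reached an average of 1 FPKM over the 6 libraries and were tested with limma over all genes. In PP2Ac knockdown 8 were higher (21.6%), 13 lower (35.1%) and 16 not past an adjusted p of 0.05. Across all 11652 tested genes 62.4% passed, 33.3% higher and 29.1% lower, so the 56.8% of autophagy genes called was near the background. The split of all tested genes turned with the scaling, to 3305 higher and 3950 lower with upper-quartile scaling, where the autophagy genes still had 8 higher and 13 lower. Their median log2 change was 0.04, beside 0.03 for all tested genes. The median size of the change, whatever its sign, was 0.315 for the autophagy genes and 0.371 for all tested genes. A change of at least 0.5 on the log2 scale and past the threshold was seen for 9 of them (24.3%), 3 higher and 6 lower, beside 35.7% of all tested genes, 18.6% higher and 17.1% lower. In 23 of 37 the groups did not overlap (62.2%), beside 68.1% of all tested genes. Both directions were found among them, and in bulk RNA fewer cells of a kind and less RNA per cell cannot be told apart.

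**Figure D1:**
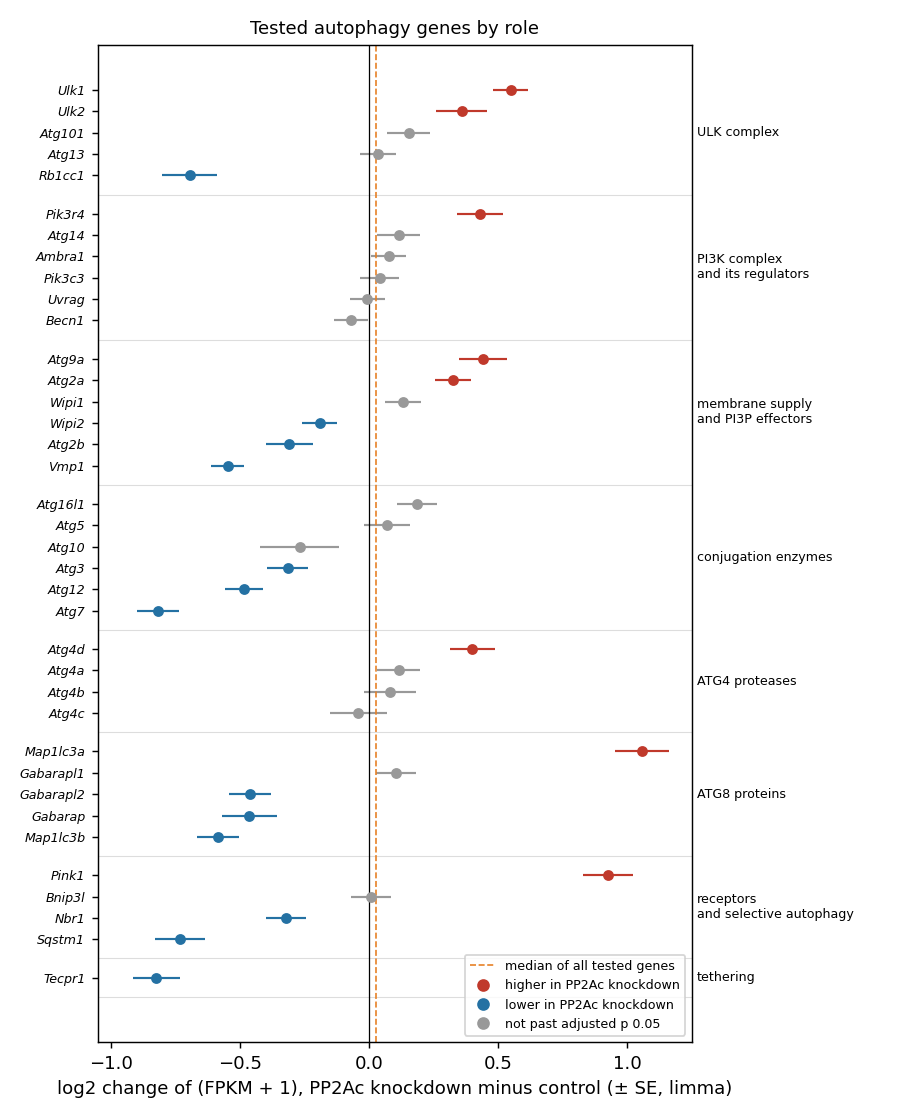
Log2 change of FPKM + 1, PP2Ac knockdown minus control, for the 37 tested autophagy genes (points, with the limma standard error as bars), grouped by role; the dashed line is the median of all tested genes (0.03). Each role holds genes on both sides of 0, and Map1lc3a (1.06) and Tecpr1 (-0.82) mark the ends. The single gene under tethering is the exception, with 1 value only.

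The ULK complex, which starts autophagosome formation, had both its kinases higher and its scaffold lower in PP2Ac knockdown. These 3 of its 5 genes (60.0%) stood beside 62.4% of all tested genes past the threshold, 33.3% higher and 29.1% lower. Ulk1 (ENSMUSG00000029512, chromosome 5, 110784488 to 110810097, minus strand, GRCm38), a serine/threonine kinase regulated by mTORC1 and AMPK, had 15.0, 16.4 and 15.0 FPKM in knockdown, against 10.6, 10.4 and 9.81 FPKM in control. All 3 knockdown libraries lay above all 3 control libraries, and the log2 change was 0.55 (SE 0.0690, limma adjusted p = 0.000238). Its relative Ulk2 averaged 7.53 ± 0.516 FPKM in knockdown and 5.67 ± 0.775 FPKM in control (SD, n = 3 each; log2 change 0.36, limma adjusted p = 0.0124). That call was lost when Gm23935, rRNA and genes of the mitochondrial genome were left out before rescaling (adjusted p = 0.0505). Rb1cc1 (ENSMUSG00000025907, chromosome 1, 6206197 to 6276648, plus strand), which encodes the scaffold FIP200, had 1.80, 1.93 and 2.05 FPKM in knockdown, against 3.75, 3.23 and 4.29 FPKM in control. Its groups did not overlap, and 51.3% of the control mean was left (log2 change -0.69, SE 0.107, limma adjusted p = 0.000692). Atg13, an adaptor of the complex, averaged 17.7 ± 1.06 FPKM in knockdown and 17.2 ± 0.487 FPKM in control (SD, n = 3 each). Atg101, its partner, averaged 40.2 ± 1.26 FPKM in knockdown and 36.1 ± 3.62 FPKM in control (SD, n = 3 each). Neither passed (limma adjusted p = 0.666 and 0.145), and their groups overlapped.

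The class III phosphatidylinositol 3-kinase complex, which marks the membrane for later factors, had 1 of 6 genes past the threshold. Of all tested genes 62.4% passed. Pik3r4, which encodes the regulatory subunit VPS15, averaged 4.94 ± 0.468 FPKM in knockdown and 3.41 ± 0.219 FPKM in control (SD, n = 3 each), a rise of 0.43 on the log2 scale (limma adjusted p = 0.00325). The kinase gene Pik3c3 (VPS34) averaged 11.1 FPKM in knockdown and 10.8 FPKM in control, and Becn1, the scaffold gene for beclin 1, 8.85 FPKM in knockdown and 9.34 FPKM in control. Atg14 and Uvrag encode alternative partners that direct the kinase to autophagosomes or endosomes. Atg14 averaged 4.21 FPKM in knockdown and 3.82 FPKM in control, and Uvrag 6.24 FPKM in knockdown and 6.27 FPKM in control. Ambra1, a beclin 1 regulator, averaged 12.9 FPKM in knockdown and 12.2 FPKM in control. For these 5 genes the 95% intervals of the log2 change, taken one gene at a time, lay between -0.22 and 0.30. Becn1 shares 43.9% of its exon bases with Cntd1 on the opposite strand, a gene that had a mean of 1.67 reads in knockdown and 5.67 in control.

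Of 6 genes of membrane supply and of the phosphatidylinositol 3-phosphate effectors, 2 were higher, 3 lower, and Wipi1 past neither way. Of all tested genes 33.3% were higher and 29.1% lower. Vmp1 (ENSMUSG00000018171, chromosome 11, 86583865 to 86683836, minus strand), an endoplasmic reticulum scramblase gene, had 24.2, 23.9 and 24.6 FPKM in knockdown, against 37.6, 35.9 and 34.1 FPKM in control. The groups lay well apart, and 67.5% of the control mean was left (log2 change -0.55, SE 0.0646, limma adjusted p = 0.000172). Atg9a, which encodes the membrane protein of the seed vesicles, averaged 13.3 ± 1.58 FPKM in knockdown and 9.48 ± 0.520 FPKM in control (SD, n = 3 each; log2 change 0.44, limma adjusted p = 0.00370). The lipid transfer genes Atg2a and Atg2b differed in direction. Atg2a averaged 14.0 ± 0.596 FPKM in knockdown and 11.0 ± 0.544 FPKM in control (SD, n = 3 each; log2 change 0.33, limma adjusted p = 0.00371). Atg2b averaged 3.97 ± 0.461 FPKM in knockdown and 5.14 ± 0.223 FPKM in control (SD, n = 3 each; log2 change -0.31, limma adjusted p = 0.0172); this call was lost without knockdown library 2 (adjusted p = 0.0571) and without control library 2 (adjusted p = 0.0534). A stretch of 507 bases of Atg2b was 96.3% identical to D10Wsu102e, with a mean of 978 reads in knockdown and 1872 in control. Another, of 344 bases, was 91.6% identical to the opposite strand of Ercc6l, with 466 reads in knockdown and 408 in control. Whether reads were shared was not tested. WIPI proteins bind phosphatidylinositol 3-phosphate. Wipi2, the recruiter of ATG16L1, averaged 19.8 ± 0.655 FPKM in knockdown and 22.7 ± 1.13 FPKM in control (SD, n = 3 each; log2 change -0.19, limma adjusted p = 0.0367). That call was lost without any of 5 of the libraries (adjusted p of 0.0577 to 0.109) and without a variance trend (adjusted p = 0.0522), and it held without control library 3. Wipi1 averaged 8.23 FPKM in knockdown and 7.42 FPKM in control without passing (limma adjusted p = 0.134), although its groups did not overlap.

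In the conjugation system, 3 of 6 genes passed the threshold, each lower in PP2Ac knockdown. Of all tested genes 62.4% passed, 33.3% higher and 29.1% lower. The 3 were the genes of the enzymes that activate and transfer ATG8 proteins, and 1 of the 3 subunits of the complex that places them. Atg7 (ENSMUSG00000030314, chromosome 6, 114643097 to 114860614, plus strand), which encodes the E1-like enzyme that activates both ATG8 and ATG12, had 8.99, 9.89 and 8.79 FPKM in knockdown, against 18.3, 17.1 and 15.7 FPKM in control. Every knockdown library lay below every control library, and 54.1% of the control mean was left (log2 change -0.82, SE 0.0804, limma adjusted p = 7.20e-05). A change of that size or larger, in either direction, was seen for 15.99% of all tested genes. For the 9 autophagy genes past the threshold with a log2 change of at least 0.5, that share ran from 8.63% (Map1lc3a) to 32.8% (Vmp1). Atg3, the E2-like enzyme gene for ATG8, averaged 9.09 ± 0.135 FPKM in knockdown and 11.6 ± 1.11 FPKM in control (SD, n = 3 each; log2 change -0.32, limma adjusted p = 0.00828). Atg12, the ubiquitin-like partner of ATG5, averaged 27.5 ± 1.69 FPKM in knockdown and 38.9 ± 1.80 FPKM in control (SD, n = 3 each; log2 change -0.48, limma adjusted p = 0.000589). The 3 others did not pass. Atg5 averaged 14.2 FPKM in knockdown and 13.5 FPKM in control. Atg16l1 averaged 6.28 FPKM in knockdown and 5.40 FPKM in control (limma adjusted p = 0.0627), with groups that did not overlap. Atg10, the E2-like enzyme gene for ATG12, averaged 1.09 FPKM in knockdown and 1.54 FPKM in control on 23 to 56 reads a library, and its 95% interval of the log2 change ran from -0.62 to 0.08, the widest of the tested autophagy genes.

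Because Tfeb and Tfe3, described further on, encode factors that bind the CLEAR box CACGTGAC in promoters of autophagy genes, that motif was searched on both strands in RefSeq promoter windows (GRCm38.p6, 250 bases before to 50 after a start), found for 31 of the 38 genes in 36 windows. It lay in 3 of the 36 windows (8.33%), beside 2.25% of all 32851 windows. The 3 genes were Atg3, Atg14 and Atg7, though the RefSeq starts of the Atg7 and Atg14 windows lie 27999 and 2215 bases inside the gene as the table places it. The E-box core CACGTG, which is part of the CLEAR box, lay in 11.1% of the windows and in 7.15% of all windows. The antioxidant response element TGACNNNGC lay in 16.7% and in 12.4% of all windows, from Atg13, Map1lc3b, Ulk2 and Vmp1, of which Vmp1 has 3 windows, 1 of them 12655 bases inside the gene. The FOXO element GTAAACA and the ATF4 and CHOP element TGATGCAA were in none of the 36 windows, beside 3.65% and 0.895% of all windows. The windows of Atg3 and Atg14 are shown for the CLEAR box and that of Map1lc3b for the antioxidant response element, with the matches in capitals, on the gene's strand. They lie at chr16:45158579-45158878 (plus strand), chr14:47568385-47568684 (minus strand) and chr8:121590188-121590487 (plus strand).
Atg3: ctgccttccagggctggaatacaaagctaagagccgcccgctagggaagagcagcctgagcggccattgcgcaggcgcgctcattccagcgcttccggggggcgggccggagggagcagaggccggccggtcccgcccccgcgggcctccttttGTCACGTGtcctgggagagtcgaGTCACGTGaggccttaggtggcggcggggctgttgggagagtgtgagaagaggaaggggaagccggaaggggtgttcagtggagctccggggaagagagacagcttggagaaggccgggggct
Atg14: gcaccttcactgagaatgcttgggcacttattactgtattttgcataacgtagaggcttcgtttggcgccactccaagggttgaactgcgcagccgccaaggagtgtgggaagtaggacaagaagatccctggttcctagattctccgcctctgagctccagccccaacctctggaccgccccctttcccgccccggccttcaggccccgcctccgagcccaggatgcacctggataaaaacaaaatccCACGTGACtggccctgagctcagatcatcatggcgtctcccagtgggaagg
Map1lc3b: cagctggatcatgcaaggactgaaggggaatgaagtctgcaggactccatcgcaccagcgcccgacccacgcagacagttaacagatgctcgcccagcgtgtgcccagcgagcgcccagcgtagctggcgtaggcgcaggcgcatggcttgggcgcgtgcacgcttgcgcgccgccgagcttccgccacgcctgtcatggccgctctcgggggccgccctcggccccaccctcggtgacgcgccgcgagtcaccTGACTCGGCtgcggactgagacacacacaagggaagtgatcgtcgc
Atg3, with 2 CLEAR boxes in its window, was lower in knockdown, and Atg14, with 1 across that internal start, did not pass the threshold. A match describes the letters of the window and does not show binding.

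Of the 4 cysteine proteases that trim ATG8 proteins before conjugation and release them afterwards, 1 passed the threshold. This stood beside 62.4% of all tested genes. Atg4d averaged 6.20 ± 0.592 FPKM in knockdown and 4.45 ± 0.239 FPKM in control (SD, n = 3 each; log2 change 0.40, limma adjusted p = 0.00387). It shares 19.3% of its exon bases with Kri1 on the opposite strand, which averaged 297 reads in knockdown and 384 in control. Atg4b, the protease of broadest activity, averaged 7.81 FPKM in knockdown and 7.32 FPKM in control. Atg4a averaged 5.43 FPKM in knockdown and 4.94 FPKM in control, and Atg4c 2.45 FPKM in knockdown and 2.56 FPKM in control. For these 3 the groups overlapped, and the 95% intervals of the log2 change lay between -0.29 and 0.32.

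Of the 5 ATG8 genes, whose products coat the autophagosome and bind receptors, 1 was higher and 3 lower, with Gabarapl1 past neither way. The shares over all tested genes were 33.3% higher and 29.1% lower. Map1lc3a (ENSMUSG00000027602, chromosome 2, 155276297 to 155278073, plus strand), which encodes LC3A, had 9.20, 10.1 and 8.05 FPKM in knockdown, against 4.34, 3.82 and 3.40 FPKM in control. The lowest knockdown library was still above the highest control library, and the mean was 2.36-fold higher, with a log2 change of 1.06 (SE 0.104, limma adjusted p = 7.28e-05). This was the largest rise among the autophagy genes, on 142 to 182 reads in knockdown and 66 to 82 in control. Map1lc3b (ENSMUSG00000031812, chromosome 8, 121590361 to 121598760, plus strand), which encodes LC3B, the usual marker protein of autophagosomes, had 25.6, 25.9 and 22.0 FPKM in knockdown, against 39.5, 36.5 and 35.7 FPKM in control. It was lower in all 3 knockdown libraries, at 65.9% of the control mean (log2 change -0.59, SE 0.0828, limma adjusted p = 0.000436). A near-identical copy, Gm6055, with 99.7% identity over 378 bases, had a mean of 278 reads in knockdown and 369 in control, so reads may have been shared between them. Gabarap averaged 117 ± 10.5 FPKM in knockdown and 162 ± 20.1 FPKM in control (SD, n = 3 each; log2 change -0.46, limma adjusted p = 0.00551). Gabarapl2 averaged 20.2 ± 1.65 FPKM in knockdown and 28.2 ± 1.81 FPKM in control (SD, n = 3 each; log2 change -0.46, limma adjusted p = 0.00146). Gabarapl1 averaged 83.9 ± 6.51 FPKM in knockdown and 77.9 ± 2.93 FPKM in control and did not pass (SD, n = 3 each; limma adjusted p = 0.272).

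The summed FPKM of the 5 ATG8 genes was 267, 266 and 231 in knockdown, against 338, 302 and 288 in control, so the sums did not overlap. Within that sum the shares of all 5 genes did not overlap between the groups (two-sided exact permutation p = 0.1 each, the smallest that 3 against 3 allow). Shares of 1 sum are bound to each other, since a fall in some raises the others, so these are not 5 separate results. Gabarapl2 held 7.95% ± 0.629 in knockdown and 9.13% ± 0.521 in control (SD, n = 3 each). Gabarapl1, whose own FPKM did not pass the threshold, made up 32.4%, 33.3% and 33.1% in knockdown, against 23.5%, 26.4% and 25.9% in control. Gabarap made up 46.3%, 46.0% and 45.5% in knockdown, against 54.6%, 51.5% and 50.8% in control, and was the largest share in all 6 libraries. Map1lc3a held 3.57% ± 0.182 in knockdown and 1.245% ± 0.0534 in control, and Map1lc3b held 9.63% ± 0.0954 in knockdown and 12.1% ± 0.367 in control (SD, n = 3 each). The LC3 pair together held 13.2% ± 0.273 in knockdown and 13.3% ± 0.318 in control (SD, n = 3 each), with overlapping groups. These shares depend on the gene lengths of the table, which are 7517 bases for Map1lc3b and 1181 for Map1lc3a. Counted in reads without length, the LC3 pair held 31.1% ± 0.353 in knockdown and 35.4% ± 0.694 in control (SD, n = 3 each). By that count the groups did not overlap for the LC3 pair, and they overlapped for Gabarapl2.

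**Figure D2:**
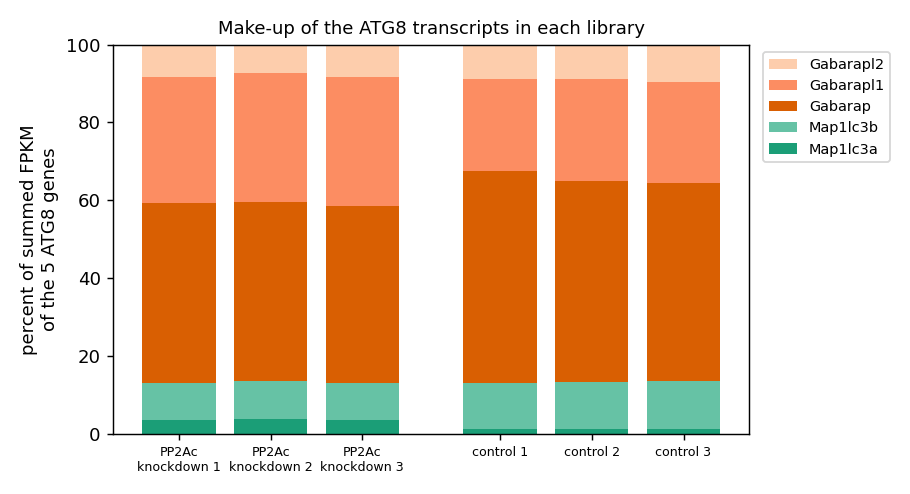
Share of each ATG8 gene in the summed FPKM of the 5 genes, in percent (vertical axis), for each PP2Ac knockdown library (left) and each control library (right). Gabarapl1 takes 32.4% to 33.3% in knockdown and 23.5% to 26.4% in control, and the 2 LC3 genes at the base of the bars together take nearly the same share in both.

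Among the 4 tested genes of receptors and selective autophagy, the aggregate receptor genes Sqstm1 and Nbr1 were lower in PP2Ac knockdown, and the mitophagy kinase gene was higher. Over all tested genes 29.1% were lower and 33.3% higher. Sqstm1 (ENSMUSG00000015837, chromosome 11, 50199366 to 50210827, minus strand), which encodes p62, a receptor that is itself degraded by autophagy, had 297, 318 and 279 FPKM in knockdown, against 531, 519 and 439 FPKM in control. The groups did not overlap, and 60.0% of the control mean was left (log2 change -0.73, SE 0.0968, limma adjusted p = 0.000306). Sqstm1 had the highest FPKM of the 38 genes in every library, above 99.3% of all tested genes by its mean over the 6 libraries. Nbr1, a related receptor gene, averaged 15.96 ± 0.218 FPKM in knockdown and 20.2 ± 1.77 FPKM in control (SD, n = 3 each; log2 change -0.32, limma adjusted p = 0.00688). Pink1 (ENSMUSG00000028756, chromosome 4, 138313409 to 138326307, minus strand), which encodes a kinase that marks damaged mitochondria, had 34.5, 39.0 and 29.8 FPKM in knockdown, against 16.95, 17.75 and 18.0 FPKM in control. Each knockdown library was well above the control libraries, and the mean was 1.96-fold higher (log2 change 0.93, SE 0.0975, limma adjusted p = 1.00e-04). Bnip3l, which encodes the mitophagy receptor NIX, averaged 19.1 ± 0.672 FPKM in knockdown and 19.03 ± 1.63 FPKM in control (SD, n = 3 each; log2 change 0.01, 95% interval -0.17 to 0.19, limma adjusted p = 0.931). Optn, the gene of the receptor optineurin, was not tested, with 1 read in knockdown library 2 and none in the other 5. At its length, 3 reads would have given between 0.0487 and 0.0535 FPKM, so Optn was not detectable at this depth.

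Tecpr1 (ENSMUSG00000066621, chromosome 5, 144194442 to 144223615, minus strand), which encodes a protein that tethers autophagosomes to lysosomes, had 5.08, 5.34 and 4.72 FPKM in knockdown, against 10.6, 9.98 and 8.598 FPKM in control. The groups did not overlap, and 51.9% of the control mean was left (log2 change -0.82, SE 0.0903, limma adjusted p = 0.000120). Tecpr1 had the lowest value on the log2(FPKM + 1) scale, while Rb1cc1, with 51.3% of its control mean left, was lower by that measure. Tecpr1, Rb1cc1, Atg2b and Wipi2 are the 4 autophagy genes with a gene length of at least 10000 bases in the table, and all 4 were lower. Among all 941 tested genes of that length, 45.5% were lower and 20.4% higher in knockdown, and among the 3366 from 5000 to 10000 bases, 32.4% were lower and 32.5% higher. The part of length in these 4 calls was not tested.

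**Figure D3:**
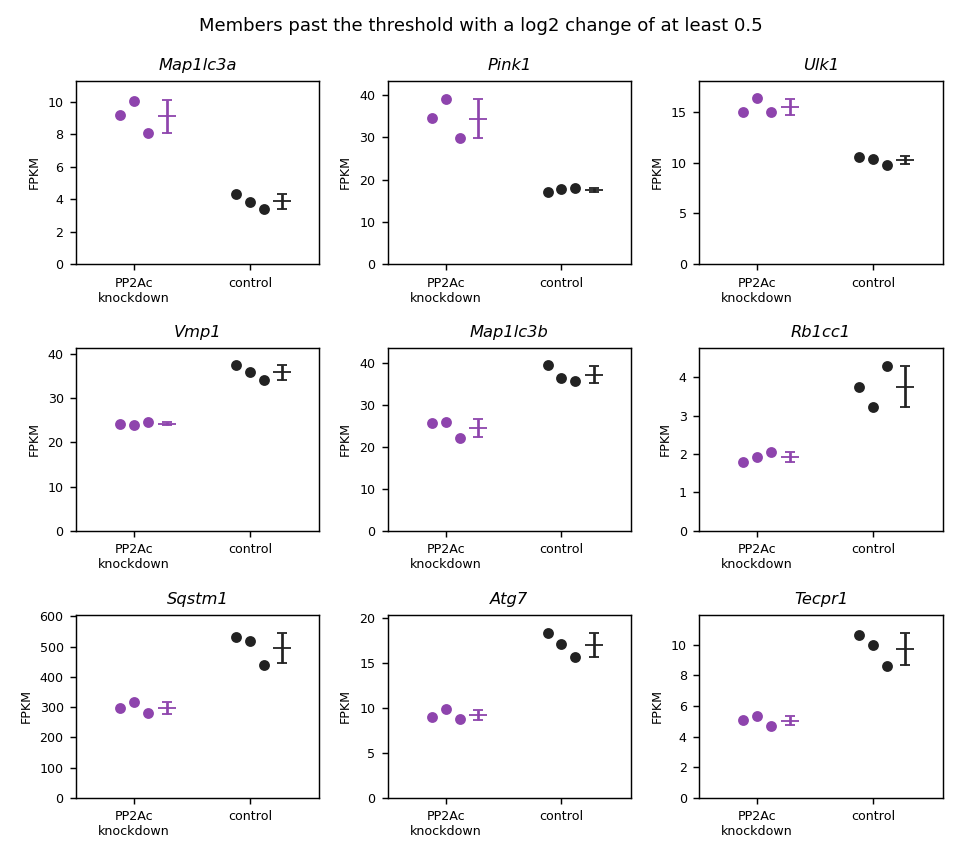
FPKM (vertical axis, from 0) of the 9 autophagy genes past the threshold with a log2 change of at least 0.5, for each PP2Ac knockdown library (left, purple) and control library (right, black), with the mean ± SD (n = 3) beside the points. Map1lc3a, Pink1 and Ulk1 are higher in knockdown and the other 6 lower. The genes were picked by these same values, so the lack of overlap in all 9 panels is no separate result. Of all tested genes 68.1% had groups that did not overlap.

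Ratios between related genes within a library do not depend on the scaling between libraries. The ratio of Map1lc3a to Map1lc3b was 0.359, 0.388 and 0.365 in knockdown, against 0.110, 0.105 and 0.0953 in control, a 3.59-fold difference. The ratio of Atg2a to Atg2b was 3.27, 4.15 and 3.30 in knockdown, against 2.13, 2.03 and 2.25 in control, and that of Gabarapl1 to Gabarapl2 was 3.91, 4.61 and 3.97 in knockdown, against 2.64, 3.01 and 2.66 in control. The ratio of Wipi1 to Wipi2 was 0.421, 0.402 and 0.424 in knockdown, against 0.307, 0.312 and 0.364 in control. These 4 ratios separated the groups, each with a two-sided exact permutation p of 0.1, the smallest that 3 against 3 libraries allow, or 0.15 when adjusted over the 6 ratios computed. Taken singly, 68.1% of all tested genes also separated the groups, and no such share was computed for ratios of other genes. For Ulk1 to Ulk2 the log2 ratio averaged 1.04 ± 0.151 in knockdown and 0.86 ± 0.249 in control (SD, n = 3 each; exact permutation p = 0.5), and for Atg4a to Atg4b -0.52 ± 0.192 in knockdown and -0.56 ± 0.171 in control (SD, n = 3 each; exact permutation p = 0.9). For those 2 pairs the groups overlapped.

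**Figure D4:**
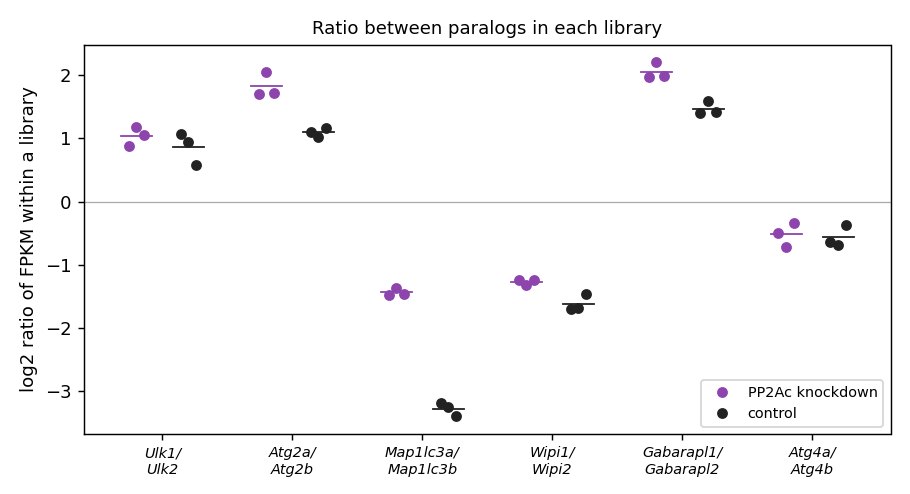
Log2 ratio of the FPKM of 2 related genes within each library (vertical axis), for PP2Ac knockdown (purple, left of each pair) and control (black), with the group mean as a line. Map1lc3a to Map1lc3b differs most, averaging -1.43 in knockdown and -3.28 in control; Ulk1 to Ulk2 and Atg4a to Atg4b overlap.

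Genes of the wider pathway were counted in 5 lists, in which 87 of 95 genes were tested, 29 of them higher and 32 lower in knockdown. The 70.1% called stood beside 62.4% of all tested genes, 33.3% higher and 29.1% lower. The counts of each list are to be read beside those shares. Transcription factors of autophagy genes had 5 of 10 tested genes higher and 4 lower. Tfeb, which encodes a master regulator of lysosomal and autophagy genes, had 6.81, 7.38 and 5.73 FPKM in knockdown, against 2.36, 3.00 and 3.02 FPKM in control (log2 change 1.009, SE 0.113, limma adjusted p = 0.000132). Its relative Tfe3 averaged 12.8 ± 1.11 FPKM in knockdown and 7.67 ± 0.636 FPKM in control (SD, n = 3 each; log2 change 0.67, limma adjusted p = 0.000302), whereas Mitf, of the same family, averaged 1.39 ± 0.157 FPKM in knockdown and 2.61 ± 0.524 FPKM in control (SD, n = 3 each; log2 change -0.59, limma adjusted p = 0.00516). The 3 FOXO genes of the list rose, Foxo4 by 1.13, Foxo3 by 0.45 and Foxo1 by 0.44 on the log2 scale (limma adjusted p of 4.67e-05, 0.00367 and 0.00800). Atf4, the stress-response factor gene, averaged 264 ± 7.57 FPKM in knockdown and 455 ± 25.8 FPKM in control (SD, n = 3 each; log2 change -0.78, limma adjusted p = 6.12e-05). Zkscan3, which encodes a repressor of autophagy genes, fell by 0.23 on the log2 scale (limma adjusted p = 0.0217) and Nfe2l2, the NRF2 gene, fell by 0.21 (limma adjusted p = 0.0498) with groups that overlapped, while Tfec was at or near 0.

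The list of upstream kinases and nutrient sensors had 8 higher and 10 lower genes among 21 tested. Its largest changes were falls in the folliculin complex, which acts on the Rag GTPases that bring TFEB and TFE3 to the lysosome. Fnip1 averaged 4.16 ± 0.304 FPKM in knockdown and 15.1 ± 1.91 FPKM in control (SD, n = 3 each; log2 change -1.63, limma adjusted p = 9.10e-06), Fnip2 fell by 0.97 and Flcn fell by 0.84 on the log2 scale (limma adjusted p of 5.09e-05 and 5.43e-05). Genes for fusion with the lysosome had 3 higher and 7 lower genes among 18. Epg5, a tethering factor gene, averaged 4.79 ± 0.281 FPKM in knockdown and 10.95 ± 0.819 FPKM in control (SD, n = 3 each; log2 change -1.04, limma adjusted p = 2.22e-05), while the HOPS subunit gene Vps41 fell by 0.74 and the endosomal SNARE gene Stx7 fell by 0.72 on the log2 scale (limma adjusted p of 0.00120 and 0.000530).

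Other receptors and selective autophagy factors had 10 higher and 6 lower genes among 21. The 3 largest changes were falls, in Stbd1, a glycogen receptor gene (by 1.02), Tollip, a ubiquitin-binding receptor gene (by 0.79), and Sec62, an endoplasmic reticulum receptor gene (by 0.77 on the log2 scale). Their limma adjusted p values were 4.98e-05, 0.000263 and 0.000718. Other core and membrane factors had 3 higher and 5 lower genes among 17. Here the ATG9 relative Atg9b averaged 10.5 ± 0.571 FPKM in knockdown and 23.9 ± 2.58 FPKM in control (SD, n = 3 each; log2 change -1.12, limma adjusted p = 2.67e-05), opposite in direction to Atg9a. Atg16l2, the relative of Atg16l1, averaged 3.93 ± 0.354 FPKM in knockdown and 1.63 ± 0.204 FPKM in control (SD, n = 3 each; log2 change 0.91, limma adjusted p = 0.000147), and the sorting nexin gene Snx30 fell by 1.51 on the log2 scale (limma adjusted p = 9.18e-06).

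**Figure D5:**
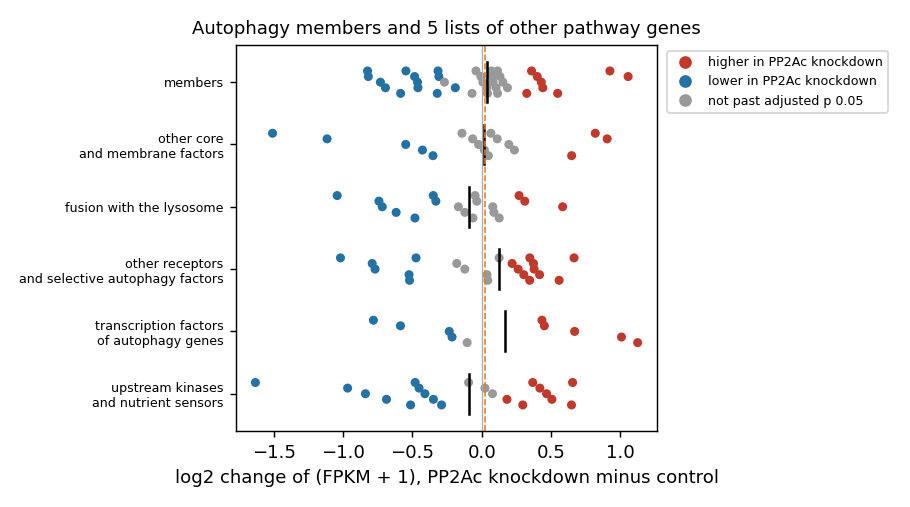
Log2 change of FPKM + 1, PP2Ac knockdown minus control (horizontal axis), for the tested autophagy genes (labelled members) and the 5 lists of other pathway genes; each point is a gene, black bars are list medians and the dashed line is the median of all tested genes. Every row spreads to both sides of 0, from -1.63 for Fnip1 to 1.13 for Foxo4.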

How the data were processed

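The authors deposited 1 table of FPKM values for 6 libraries, with gene names, positions, strand and length. Per the submitters' processing notes the builds named are GRCm38 and mm10; per the labels' protocols, Trizol RNA went into Illumina TruSeq RNA libraries. How reads were aligned, and whether counting used strand, is not given in the sources used here; overlapping or near-identical genes can therefore share reads. FPKM times gene length was a whole multiple of 1 step for 100% of non-zero values per library (within 0.01), which gave reads per gene; counting error only is covered by a floor of 3 reads.

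limma 3.58.1 in R 4.3.3 (lmFit, eBayes with trend) was run on log2(FPKM + 1) for the 11652 genes averaging 1 FPKM or more, with Benjamini-Hochberg adjustment over all of them and a threshold of 0.05. Changes are knockdown minus control and understate low genes. The script was tested on simulated data. Tables were made in Python 3.11.15 (scipy 1.17.1, pandas 2.3.3, numpy 2.4.6). Positions of 37 of the 38 genes were the same in GENCODE M21. Overlaps came from its exons, and near-identical copies from minimap2 alignments of its transcripts.

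The 38 genes and the other lists were chosen with earlier results of these data known. Genes past the threshold with a log2 change of at least 0.5 are given in every library, and from each other list the 3 largest changes past the threshold and the transcription factors are named. Some genes of the lists are not reported here by name. Alternatives changed the pseudocount, low-value filter, scaling or variance model, weighted the arrays, kept protein-coding genes alone, added a replicate block, or dropped 1 library at a time; limma voom on the recovered reads was added after seeing the data.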

Additional observations from a re-analysis of the deposited data

How the results depend on the processing

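Of the 21 autophagy genes past the threshold, 18 kept their direction and stayed past it under every alternative run, up to 19 per gene; the exceptions were Wipi2, Atg2b and Ulk2, with the values given above, and no called gene changed direction. None of the 16 other tested genes passed under any alternative. Over the settings 7 or 8 autophagy genes were higher and 11 to 13 lower. For the 5 lists of other pathway genes, 22 to 29 were higher and 28 to 36 lower, with 75 to 94 tested. With upper-quartile scaling these lists had 25 higher and 36 lower, against 29 and 32 as reported. The median log2 change of the autophagy genes, 0.04 as reported, was -0.0068 with median-of-ratios scaling, -0.053 with upper-quartile scaling and -0.034 after Gm23935, rRNA and genes of the mitochondrial genome were left out. The median of all tested genes was then -0.01, -0.05 and -0.035, since scaling shifts every gene. With a mean FPKM of 5 or more, where fewer genes are tested, 2208 of all genes were lower, against 3388. Over all tested genes, 3879 higher and 3388 lower as reported, the split was 3607 and 3639 with median-of-ratios scaling, 3305 and 3950 with upper-quartile scaling, and 3387 and 3738 with those transcripts left out.

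Genes not past the threshold changed sign as follows; the cause was not tested for those that did so without a library. With median-of-ratios scaling Atg13 was at -0.0068 and Bnip3l at -0.035. With upper-quartile scaling Atg13 was at -0.053, Pik3c3 at -0.045, Ambra1 at -0.012, Atg5 at -0.018, Atg4b at -0.0016 and Bnip3l at -0.081. With those transcripts left out Atg13 was at -0.034, Pik3c3 at -0.027 and Bnip3l at -0.063, and with voom Bnip3l was at -0.012. Leaving out 1 library at a time, the log2 change ran from -0.012 to 0.082 for Pik3c3, from -0.025 to 0.0077 for Uvrag, from -0.0086 to 0.14 for Atg5, from -0.13 to 0.039 for Atg4c and from -0.050 to 0.068 for Bnip3l, and the log2 difference of the Atg4a to Atg4b ratio ran from -0.043 to 0.15.

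Whether the replicate numbers pair the libraries could not be settled. Deviations from the group means of same-numbered libraries correlated at -0.011, 0.159 and 0.052 across genes. Those of differently numbered libraries correlated between -0.177 and 0.133. With the replicate block 7363 of all genes passed, against 7267, and 8 autophagy genes were higher and 13 lower, as without it. Planned count tests with edgeR and DESeq2 were not run; limma voom on the recovered reads was run instead. Depth limits Atg10, Map1lc3a and Optn most.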
